A study of Mus musculus with 16 samples.

Results

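Transcripts of endothelial and mesenchymal genes were examined in macrophages sorted from mouse liver cancer. The genes were chosen by name: 20 that mark blood vessel or liver sinusoidal endothelium, and 20 that mark stellate cells, fibroblasts or the matrix they lay down. Of these 40 names, 39 were among the 26931 genes of the expression table, 19 endothelial and 20 mesenchymal. Fcn3 was not matched by symbol and is not analysed here.

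Cells carrying F4/80, the surface protein encoded by Adgre1, were isolated by magnetic sorting from liver cancers of mice labelled WT. The 16 samples formed 4 groups of 4 samples, treated with anti-PD-1 and anti-CX3CR1 together, with anti-CX3CR1, with anti-PD-1, or with IgG as control. The labels state neither the age of the mice nor the tumour model or antibody dose. The table holds 15 libraries named TAM, for tumour-associated macrophage, and a number. No label ties a number to a treatment, so every value below belongs to a library of unknown treatment and no treatments are compared.

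Liver sinusoids are lined by a fenestrated endothelium that clears waste from the blood through scavenger receptors such as stabilin-2 and takes its growth signals from VEGF and angiopoietin. Hepatic stellate cells lie beneath that endothelium, store vitamin A at rest, and when activated become contractile, matrix-producing myofibroblasts. Which cells in the sorted preparations carried these transcripts was not tested. In a bulk library fewer cells of a type and less RNA per cell cannot be told apart.

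The values are FPKM, read counts scaled to gene length and to the library's total, so levels can be compared between genes. They were whole multiples of the value of 1 read in each library, which gave the totals behind them: 37232854 to 40565360 reads per library, with 19348 to 19980 genes above 0. All 12 macrophage markers examined had a median of at least 1 FPKM and together summed to 11613 to 14572 FPKM, and Adgre1 itself lay between 67.4 and 88.4 FPKM. By the reads of 12208 genes, the libraries were cut into 4 sets, a number chosen to equal that of the treatments. The sets were libraries 1, 3 and 4, libraries 5 to 8, libraries 9 to 12 and libraries 13 to 16. Each set held fewer than 6 libraries, so no correlation over all 15 is given, and the shared variation is described by which libraries were high or low. No pair of libraries agreed within sampling noise; the closest pair differed with a mean chi-square of 3.81 per gene, where sampling alone gives 1.

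Promoter sequences are shown for 3 endothelial genes that were low in the same libraries, for a mesenchymal gene that was high there, and for a pair of genes that start close together. All are from RefSeq on GRCm38.p6, run from 250 bases before the annotated start to 50 after it, and are printed 5′ to 3′ on the gene's own strand. The first set comprises 3 endothelial genes with some of the widest ranges, Stab2 (chr10:87007893-87008192, minus strand), Clec4g (chr8:3720602-3720901, minus strand) and Kdr (chr5:75978406-75978705, minus strand), and the smooth muscle actin gene Acta2 (chr19:34255324-34255623, minus strand). Capitals mark AGGAAG on either strand, a sequence with the GGAA core that ETS transcription factors recognise.
Stab2: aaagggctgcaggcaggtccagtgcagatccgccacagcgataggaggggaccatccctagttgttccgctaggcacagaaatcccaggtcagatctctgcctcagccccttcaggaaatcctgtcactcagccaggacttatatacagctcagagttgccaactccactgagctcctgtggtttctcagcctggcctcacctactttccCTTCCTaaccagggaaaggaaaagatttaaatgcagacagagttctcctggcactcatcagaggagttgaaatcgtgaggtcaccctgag
Clec4g: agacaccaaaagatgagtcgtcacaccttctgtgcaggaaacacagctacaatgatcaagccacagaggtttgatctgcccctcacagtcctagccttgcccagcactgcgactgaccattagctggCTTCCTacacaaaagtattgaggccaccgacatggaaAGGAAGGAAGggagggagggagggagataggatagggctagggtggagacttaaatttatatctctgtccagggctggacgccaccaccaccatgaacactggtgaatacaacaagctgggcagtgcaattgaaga
Kdr: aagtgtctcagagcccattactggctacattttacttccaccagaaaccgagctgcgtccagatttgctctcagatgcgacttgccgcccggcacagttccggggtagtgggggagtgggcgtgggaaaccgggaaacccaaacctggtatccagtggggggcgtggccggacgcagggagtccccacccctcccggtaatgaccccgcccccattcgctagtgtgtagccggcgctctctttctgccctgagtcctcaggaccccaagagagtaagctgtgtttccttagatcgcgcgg
Acta2: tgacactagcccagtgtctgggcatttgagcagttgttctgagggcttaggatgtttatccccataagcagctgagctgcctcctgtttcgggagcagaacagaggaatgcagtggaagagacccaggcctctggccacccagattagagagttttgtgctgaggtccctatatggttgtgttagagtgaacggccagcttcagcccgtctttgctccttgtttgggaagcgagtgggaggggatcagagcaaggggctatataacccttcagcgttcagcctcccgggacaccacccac

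The Stab2 window held 1 match, on the opposite strand, and the Clec4g window 3, of which 2 overlap. Kdr and Acta2 held 0 in these windows. Windows were in the RefSeq table for 24 of the 40 genes. Of the 9 endothelial genes with a window, 7 held AGGAAG, as did 2 of the 15 mesenchymal genes and 35.4% of all 32851 windows. GATAAG, with the core that GATA factors recognise, was in 1 of 9 endothelial and 2 of 15 mesenchymal genes and in 7.44% of all windows. TATAAA was in 2 of 9, in 2 of 15 and in 13.6%. A listed gene was counted if any of its windows held the sequence, while the shares over all are per window. A gene with several windows therefore had more than 1 opportunity, and the units are not alike. A match is a description of the letters and not a binding site.

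The second set is the shared promoter of Col4a1 (chr8:11312777-11313076, minus strand) and Col4a2 (chr8:11312555-11312854, plus strand), which encode the chains of basement membrane collagen IV. Their annotated starts lie 21 bases apart on opposite strands, and capitals mark the 78 bases that both windows hold.
Col4a1: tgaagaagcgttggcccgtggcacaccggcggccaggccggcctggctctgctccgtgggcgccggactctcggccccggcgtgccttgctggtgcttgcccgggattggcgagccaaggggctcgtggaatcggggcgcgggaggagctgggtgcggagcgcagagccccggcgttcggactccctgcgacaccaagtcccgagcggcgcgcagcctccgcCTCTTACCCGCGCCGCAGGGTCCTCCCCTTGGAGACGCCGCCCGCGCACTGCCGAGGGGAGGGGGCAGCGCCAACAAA
Col4a2: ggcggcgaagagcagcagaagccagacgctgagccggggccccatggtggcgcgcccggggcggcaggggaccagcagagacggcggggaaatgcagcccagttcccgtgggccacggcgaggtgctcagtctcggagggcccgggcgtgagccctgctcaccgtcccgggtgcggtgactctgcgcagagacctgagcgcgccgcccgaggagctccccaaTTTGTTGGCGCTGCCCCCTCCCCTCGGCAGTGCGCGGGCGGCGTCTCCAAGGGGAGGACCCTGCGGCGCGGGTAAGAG

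Among the endothelial genes, 18 of the 19 had a median of at least 1 FPKM over the libraries, and Vwf, the gene of von Willebrand factor, had a median of 0.913. Clec4g, a lectin of sinusoidal endothelium, had the highest median, 54.6 FPKM, at rank 1231 of all genes. Next came Dnase1l3, a secreted DNase also made by macrophages and dendritic cells, with a median of 42.2, and Eng, which encodes endoglin, a co-receptor for BMP ligands, with 42.0. The lowest of the 18 was Sox18, a transcription factor of vessel development, with 2.29. Of the mesenchymal genes, 16 of 20 had a median of at least 1 FPKM. Sparc, a matrix protein that binds collagen, was the highest with a median of 221, at rank 348, followed by Ecm1 with 188 and Col3a1 with 101.

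**Figure D1:**
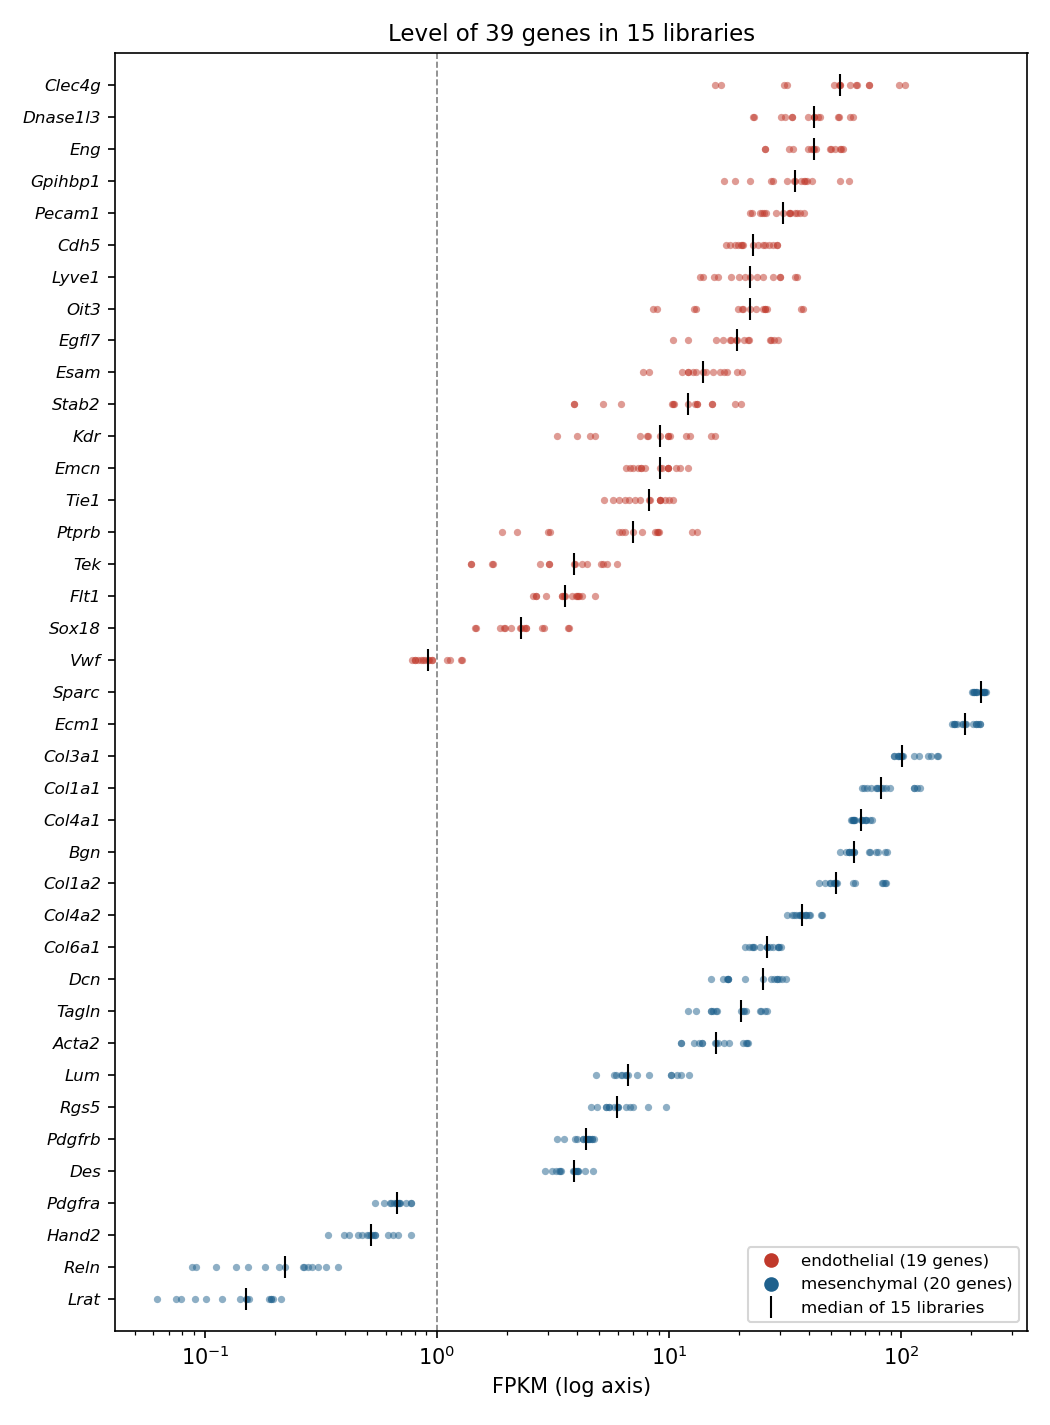
FPKM on a log axis for the 39 genes, endothelial above and mesenchymal below, each sorted by median; points are the 15 libraries, black ticks the medians, and the dashed line is 1 FPKM. Clec4g spreads from 15.8 to 104 FPKM while Sparc stays between 201 and 232.

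The endothelial genes varied more between libraries than most genes did. Their ratio of the highest to the lowest library had a median of 2.69, against 1.60 for the mesenchymal genes and 1.50 for all 10657 genes with a median of at least 1 FPKM. It exceeded 2 for 13 of 18 endothelial and 4 of 16 mesenchymal genes, and for 14.9% of all genes. No test stands behind these counts. A wide range was not particular to the endothelial genes. The same median ratio was 2.33 for Kupffer cell, 2.37 for cholangiocyte, 3.60 for hepatocyte and tumour, and 5.04 for neutrophil genes. For red cell and platelet genes it was 5.13, for lymphocyte genes 6.38 and for macrophage genes 1.42. The variance between libraries was far beyond counting error. Its median was 126 times the counting variance for the endothelial genes and 89.0 times for the mesenchymal genes. It was 14.7 times over the 10572 genes whose reads could be counted. At the same fold range this measure grows with the number of reads, so its size does not rank the lists by variability. Sparc, ranging 1.16-fold on a median of 22131 reads, had 57.8, and Lum, ranging 2.53-fold on a median of 541, had 56.5. The high and low libraries were largely shared. Of the 18 endothelial genes, 9 were highest in library 5 and 6 in library 6, which were the highest libraries for 18.7% and 9.25% of all genes; the remaining 3 were highest in libraries 13 and 14. Of the same 18, 12 were lowest in library 9 and 4 in library 10, against 9.12% and 8.81% of all genes. Of the 16 mesenchymal genes, 4 were highest in library 9, 4 in library 12 and 3 in library 13, against 3.59%, 4.02% and 2.58% of all genes. Libraries 1 and 16 were the lowest for 4 mesenchymal genes each, against 2.43% and 8.88% of all genes.

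**Figure D2:**
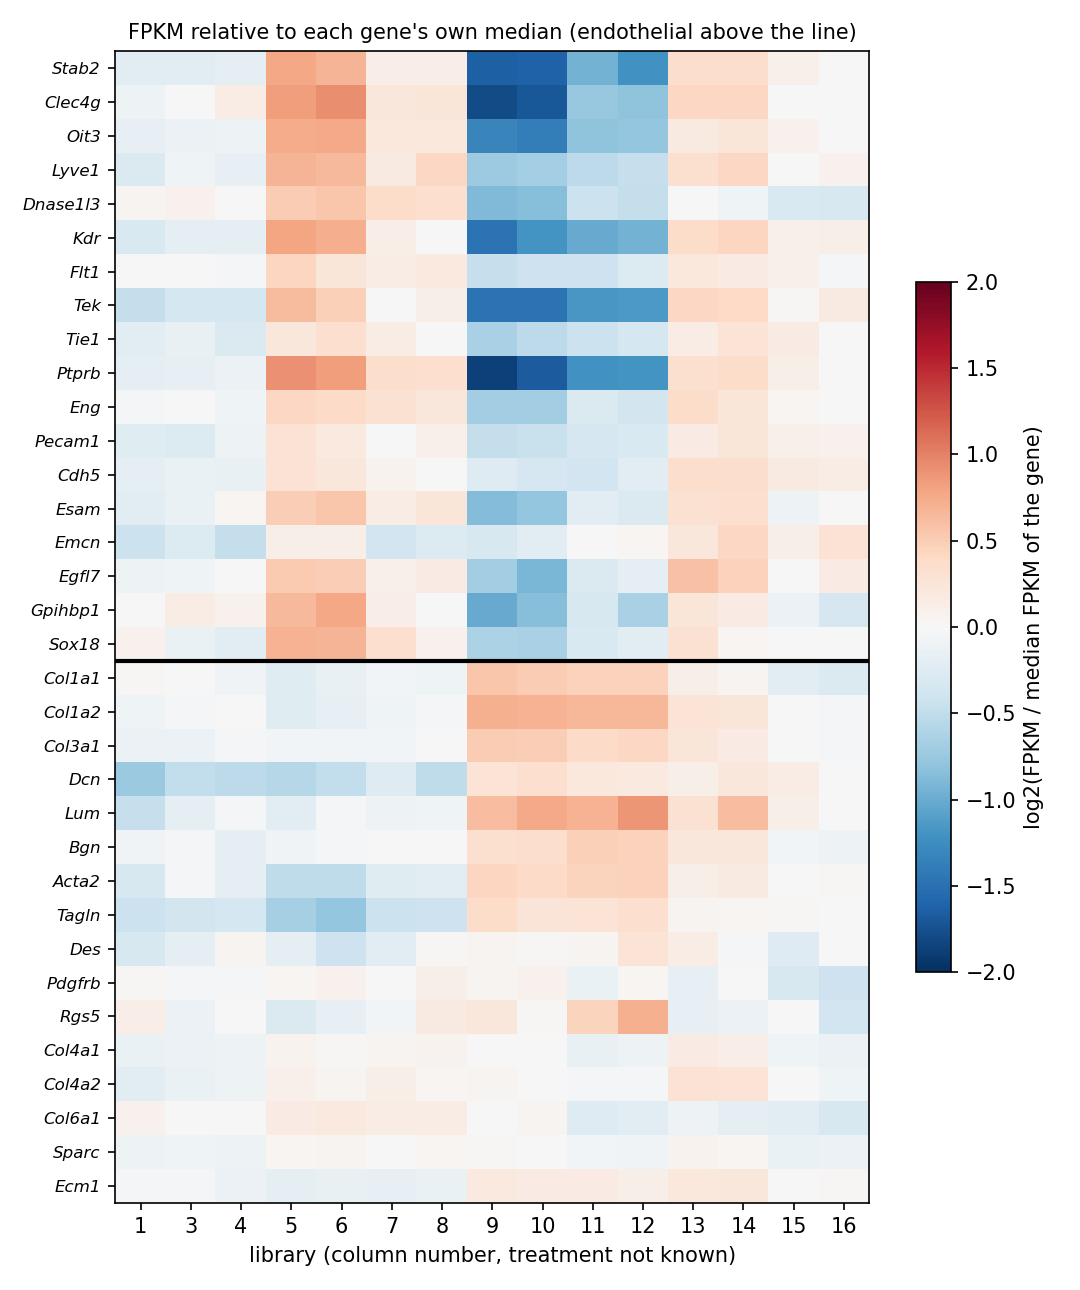
log2 of each gene's FPKM over its own median, for the 34 genes with a median of at least 1 FPKM; columns are the 15 libraries and the line parts endothelial (above) from mesenchymal genes (below). Most endothelial rows are red in libraries 5 and 6 and blue in libraries 9 to 12, Emcn is an exception, and the fibrillar collagens are red in libraries 9 to 12.

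Among 5 genes of the sinusoidal endothelium the range ran from 2.62-fold for Lyve1 to 6.59-fold for Clec4g. Stab2, which encodes the hyaluronan scavenger receptor stabilin-2, was at 20.5 and 19.3 FPKM in libraries 5 and 6, at 15.3 in both 13 and 14, and at 13.2 in both 7 and 8. It was at 12.9 in library 15 and slightly less in library 16, at 10.4, 10.3 and 10.5 in libraries 1, 3 and 4, and at 3.89, 3.90, 6.23 and 5.18 in libraries 9, 10, 11 and 12. Libraries 9 to 12 therefore held its 4 lowest values, and the next value was 10.3. Counting error was small beside this. The 95% Poisson intervals were 20.1 to 21.0 FPKM in library 5, from 7857 reads, and 3.69 to 4.09 in library 9, from 1488. These intervals cover counting error only. As reads of PCR-amplified libraries are not independent molecules, they can be too narrow even for that.

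Clec4g was high and low in nearly the same libraries, with 104 FPKM in library 6, a median of 54.6 and 15.8 in library 9, a 6.59-fold range. Oit3, a gene of sinusoidal endothelium whose product is secreted, ranged from 8.52 in library 10 over a median of 22.3 to 37.8 in library 6, a 4.44-fold range. Lyve1, the hyaluronan receptor of lymphatic and sinusoidal endothelium that some macrophages also make, ranged 2.62-fold, from 13.6 in library 9 over a median of 22.4 to 35.7 in library 5. For these 3 genes too, the 4 lowest values were those of libraries 9 to 12. Dnase1l3 ranged 2.70-fold, from 23.0 in library 9 to 62.2 in library 6. Its order differed elsewhere: libraries 15 and 16 came directly above libraries 9 to 12.

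The receptors of vascular growth factors did not vary to one extent. Kdr, the main signalling receptor for VEGF, was at 15.8 and 15.2 FPKM in libraries 5 and 6 and at 3.29, 3.99, 4.57 and 4.78 in libraries 9 to 12, with a median of 9.18 over all. Flt1, a VEGF receptor that often acts as a decoy and is also made by monocytes, ranged only 1.86-fold, from 2.58 in library 9 to 4.79 in library 5. The ratio of Kdr to Flt1 FPKM within a library accordingly ran from 1.28 in library 9 to 3.60 in library 6. Tek, the angiopoietin receptor, ranged 4.29-fold, from 1.40 in library 10 over a median of 3.88 to 5.99 in library 5. Its partner Tie1 ranged 1.99-fold, from 5.23 to 10.4. Ptprb, the endothelial phosphatase that dephosphorylates the angiopoietin receptor, had the widest range of the endothelial genes with a median of at least 1 FPKM, 6.87-fold, from 1.91 in library 9 to 13.2 in library 5. Eng ranged 2.16-fold, from 25.9 in library 9 to 56.0 in library 5.

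The pan-vascular genes Pecam1 and Cdh5 had narrower ranges than the 5 sinusoidal genes above. Pecam1, the adhesion molecule CD31 that leukocytes also carry, ranged 1.70-fold, from 22.3 in library 9 over a median of 31.0 to 38.0 in library 5. Cdh5, VE-cadherin, ranged 1.66-fold, from 17.6 in library 11 over a median of 23.0 to 29.3 in library 14. Cdh5 is also expressed by mouse Kupffer cells, the resident macrophages of the liver. The 8 Kupffer cell markers examined summed to 204 FPKM in library 8 at the lowest and 343 in library 4 at the highest, and their part in the Cdh5 values was not tested. The ratio of Stab2 to Pecam1 ran from 0.172 in library 10 to 0.542 in library 6, so Stab2 and Pecam1 did not change in proportion. The sinusoidal genes were not set apart from all others by their range. Esam, a junction adhesion molecule, ranged 2.68-fold, from 7.71 in library 9 to 20.6 in library 6, against 2.62-fold for Lyve1.

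**Figure D3:**
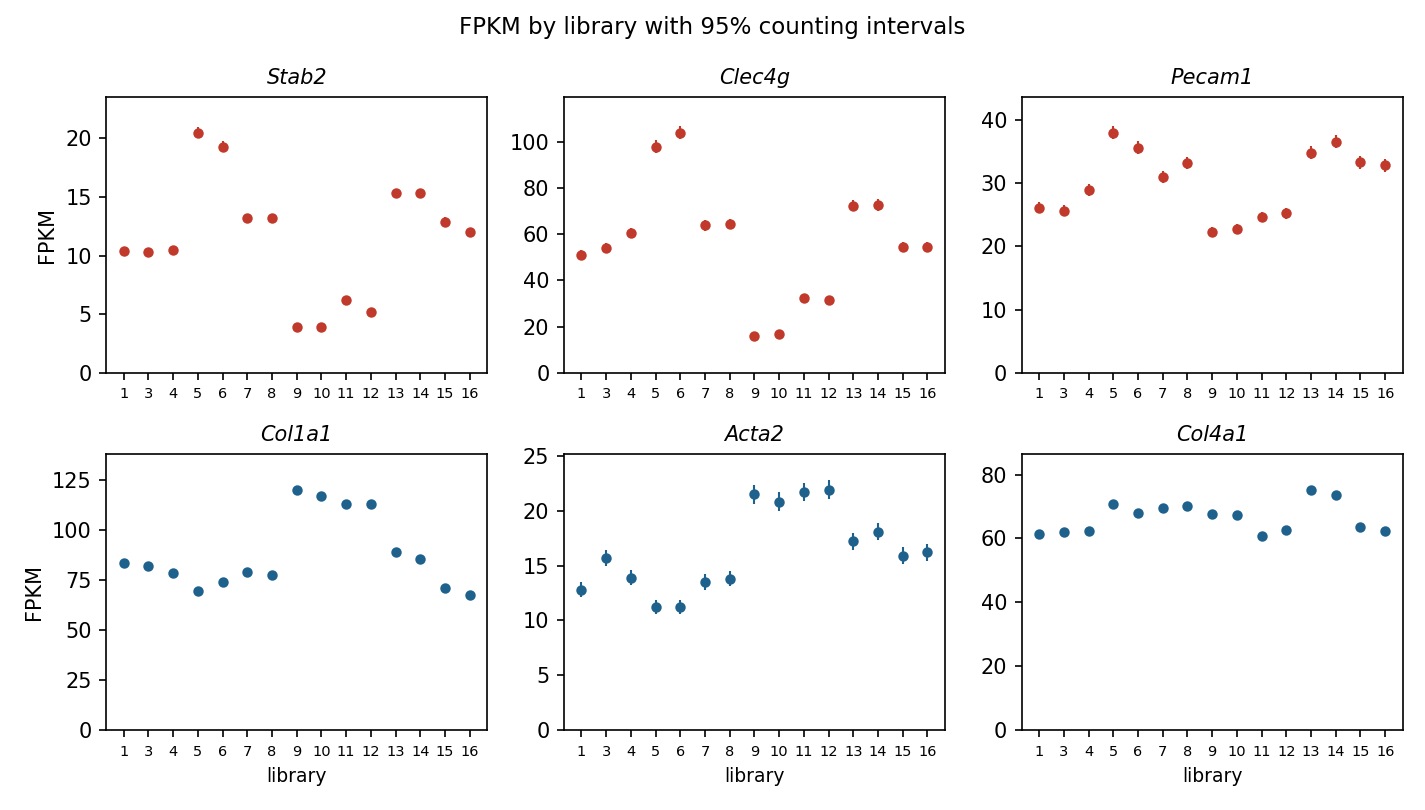
FPKM of 6 genes (y axis, from 0) in each of the 15 libraries (x axis), endothelial in red and mesenchymal in blue; bars are 95% Poisson intervals on the reads, often smaller than the point. Stab2 and Clec4g have their 4 lowest values in libraries 9 to 12, where Col1a1 and Acta2 have their 4 highest, and Col4a1 stays between 60.8 and 75.2 FPKM.

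The remaining endothelial genes highest in libraries 5, 6 or 13 were Gpihbp1, Egfl7 and Sox18. Gpihbp1, which anchors lipoprotein lipase in capillaries, ranged 3.44-fold, from 17.3 in library 9 over a median of 34.8 to 59.6 in library 6. Egfl7, a secreted vascular factor, ranged 2.83-fold and was highest in library 13, at 29.5, and lowest in library 10, at 10.4. Sox18 ranged 2.55-fold, from 1.46 in library 10 to 3.71 in library 5, on 89 to 236 reads.

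Emcn and Vwf departed from this order. Emcn, which encodes the sialomucin endomucin of capillaries and veins, was highest in library 14, at 12.1 FPKM, and lowest in library 4, at 6.52. It stood at 7.34, 7.86, 9.12 and 9.32 in libraries 9 to 12, above several other libraries. Vwf, made by the endothelium of larger vessels and by megakaryocytes, was at 1.28 and 1.27 in libraries 14 and 13, at 1.14 and 1.10 in libraries 9 and 10, and lowest in library 3, at 0.781. Its 95% intervals in the highest and lowest libraries, 1.17 to 1.40 and 0.691 to 0.879, did not overlap. As these libraries were picked as the extremes of the same values, this is no test. Markers of red cells and platelets, 8 genes, summed to between 191 FPKM in library 8 and 371 in library 11, most of it Pf4 at 182 to 341, and their part in the Vwf values was not tested.

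Summed over the 19 genes, the endothelial level was 546 and 539.8 FPKM in libraries 6 and 5, 443 and 439 in libraries 13 and 14, and 411 and 410.5 in libraries 7 and 8. The sum was 362 and 357 in libraries 15 and 16, 333, 348 and 351 in libraries 1, 3 and 4, and 194, 198, 261 and 256 in libraries 9, 10, 11 and 12. The highest library stood 2.81-fold above the lowest. Set against the 12 macrophage markers of the same library, the sum was 1.58% to 4.65%. The 20 mesenchymal genes summed to 1107, 1094, 1061 and 1061 FPKM in libraries 9 to 12, to 1030.1 and 1016 in libraries 13 and 14, and to between 857 and 901 in the other 9 libraries. Their range was 1.29-fold. Sparc and Ecm1, with the highest medians of the 20, 221 and 188 FPKM, weighed most in this sum and ranged only 1.16-fold and 1.33-fold. The libraries lowest for the endothelial sum were thus the highest for the mesenchymal sum, while libraries 13 and 14 were above the median in both.

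**Figure D4:**
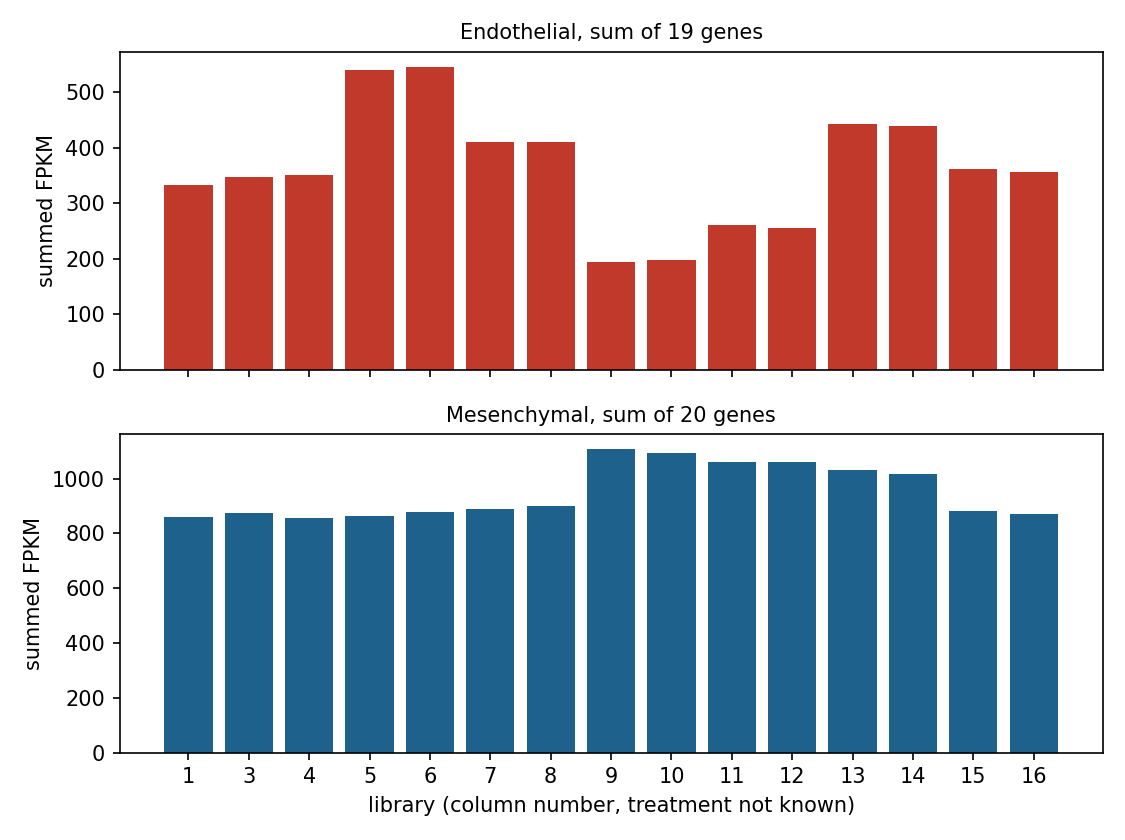
Summed FPKM (y axis, from 0) of the 19 endothelial genes (upper panel) and the 20 mesenchymal genes (lower panel) in each library (x axis). Endothelial bars run from 194 in library 9 to 546 in library 6, and mesenchymal bars from 857 in library 4 to 1107 in library 9.

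The fibrillar collagen genes, whose products form the fibres of scar and stroma, were highest in libraries 9 to 12. Col1a1, a chain of type I collagen, was at 120.1, 117, 113 and 113 FPKM there and between 67.5 and 89.2 in the other libraries. Col1a2, the partner chain, was at 85.6, 84.8, 83.1 and 82.6 there, with 63.0 in library 13 the next highest value. Col3a1, the gene of type III collagen, was at 144, 142, 131 and 134 there and at 119 in library 13. The ratio of Col1a1 to Col1a2 FPKM lay between 1.31 and 1.69. Among the small proteoglycans that bind collagen, Dcn ranged 2.10-fold, from 15.2 in library 1 over a median of 25.4 to 31.9 in library 10, but libraries 13 to 16 were also high, at 25.4 to 29.8. Lum ranged 2.53-fold, from 4.82 in library 1 to 12.2 in library 12. Bgn, biglycan, ranged 1.60-fold, from 54.4 in library 4 to 86.9 in library 11.

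Acta2 and Tagln, contractile genes of myofibroblasts and smooth muscle, had their 4 highest values in the same libraries. Acta2, alpha smooth muscle actin, was at 21.5, 20.8, 21.7 and 21.9 FPKM in libraries 9 to 12 and lowest, at 11.2, in libraries 5 and 6. Tagln, transgelin, was at 26.5, 24.6, 24.9 and 25.8 there and was lowest in library 6, with library 5 next, a 2.21-fold range. An annotated antisense transcript covers 62.4% of the exon bases of Tagln, and as no strand setting is given, reads of the pair cannot be told apart. Des, the intermediate filament desmin of stellate and muscle cells, ranged 1.60-fold, from 2.93 to 4.69, with its second highest value, 4.32, in library 13. Pdgfrb, the PDGF receptor of stellate cells and pericytes, ranged 1.44-fold, from 3.30 to 4.76. Rgs5, a pericyte gene, was at 9.74 and 8.13 in libraries 12 and 11 and at most 6.99 in the others. Its values in libraries 9 and 10, 6.99 and 6.05, were within reach of library 8, at 6.78.

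Of the 16 mesenchymal genes with a median of at least 1 FPKM, Sparc, Col4a1, Ecm1, Col4a2 and Col6a1 varied least. Pdgfrb, at 1.44-fold, was close to them. Col4a1 ranged 1.24-fold and Col4a2 1.41-fold, both highest in library 13, at 75.2 and 45.7 FPKM. Within a library the ratio of Col4a1 to Col4a2, the genes of the shared promoter printed above, stayed between 1.64 and 1.90. Collagen IV is made by endothelium as well as by stellate cells, and its values followed neither the sinusoidal genes nor the fibrillar collagens. The ratio of Col1a1 to Col4a1 ran from 0.982 in library 5 to 1.86 in library 11. Sparc ranged 1.16-fold, from 201 to 232, Ecm1, an extracellular matrix protein of quiescent stellate cells, 1.33-fold, from 165 in library 5 to 219 in library 14, and Col6a1, a chain of microfibrillar collagen VI, 1.43-fold, from 21.2 to 30.3.

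The 4 mesenchymal genes with a median under 1 FPKM were Lrat, Reln, Hand2 and Pdgfra, whereas Ecm1, Pdgfrb and Des, also genes of stellate cells, had medians of 188, 4.39 and 3.89. Ecm1 thus stood far above Pdgfrb and Des, and which cells carried it was not tested. Lrat, which makes the retinyl esters that stellate cells store, had a median of 0.151 FPKM, and its reads numbered 13 to 45 per library. Its 95% interval was 0.0331 to 0.106 FPKM in library 3, the lowest, and 0.155 to 0.285 in library 14, the highest. Reln, a secreted glycoprotein of stellate cells, had a median of 0.221 and ranged from 0.0882 in library 5 to 0.375 in library 9. Hand2, a transcription factor of stellate cells, had a median of 0.518 on 30 to 65 reads, and Pdgfra, the PDGF receptor of fibroblasts, 0.671 on 189 to 278 reads. The variance between libraries was 2.07 times the counting variance for Hand2 and 1.92 times for Pdgfra, so counting error made up a large share of their spread. An antisense transcript, listed at a median of 0.426 FPKM, shares 19.6% of the exon bases of Hand2.

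Further genes of both cell types were listed apart from these 39. Of 30 other endothelial genes, 24 had a median of at least 1 FPKM. Of these 24, 9 were highest in library 5, 4 in library 6, 4 in library 13 and 5 in library 14. Those libraries were the highest for 18.7%, 9.25%, 2.58% and 3.14% of all genes. Library 9 was the lowest for 12 of the 24, against 9.12% of all genes. The sum of the 30 genes ranged 1.92-fold, from 105 FPKM in library 9 to 201 in library 5. Plvap, the diaphragm protein of fenestrated capillaries, had the highest median, 17.9, and was highest in library 13, at 24.3. Of 30 other mesenchymal genes, 20 had a median of at least 1 FPKM, 7 of them highest in library 10 and 6 in library 12, against 4.59% and 4.02% of all genes. Their sum ranged 1.23-fold, from 167 in library 15 to 206 in library 10. That sum was 205 and 206 in libraries 9 and 10, 203 to 204 in libraries 5 to 8, and 188 and 191 in libraries 11 and 12. Libraries 9 to 12 therefore did not stand out in it as they did for the 20 genes. Nid1, which encodes the basement membrane protein nidogen, had the highest median among them, 40.8. It ranged 1.75-fold, from 30.5 in library 11 to 53.4 in library 5, more than Col4a1 and Col4a2 did.

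Markers of other cells also differed between the libraries. The 12 hepatocyte and liver tumour genes, 9 of them with a median of at least 1 FPKM, summed to 756 FPKM in library 5, the highest, and to 614 in library 15, the lowest. Trf, Krt8 and Krt18 had the highest medians of the 12, 284, 133 and 85.5 FPKM. They ranged only 1.77-, 1.17- and 1.22-fold and were highest in libraries 11, 10 and 9. Alb, albumin, by contrast ranged from 30.9 in library 10 to 224 in library 5, which the sum does not show. The 8 lymphocyte genes, 3 of them with a median of at least 1, summed to between 40.3 and 42.3 FPKM in libraries 5 to 8 and to between 8.15 and 15.8 in the others. The 6 neutrophil genes, 4 of them with a median of at least 1, summed to 52.5 in library 1 at the lowest and 186 in library 13 at the highest. The 6 cholangiocyte genes, 5 of them with a median of at least 1, summed to 386 in library 5 at the lowest and 879 in library 10 at the highest, most of it Spp1, osteopontin, which macrophages also make. No gene of these lists was at 0 in every library, but Ncr1, a natural killer cell gene, had at most 9 reads and Ly6g, a neutrophil gene, at most 20. Their part in the endothelial and mesenchymal values was not tested.

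Outside the 39 genes, those ordered most like Stab2 over the 15 libraries, by Pearson correlation of log2(FPKM + 1) used only to rank them, were Plxnc1, F8, Ehd3, Clec14a, Cd55, Aqp1, Kit, Flt4, Il6st and Mmrn2. F8, which encodes coagulation factor VIII and is made by sinusoidal endothelium, ranged from 1.10 to 7.04 FPKM, and Flt4, a VEGF receptor of lymphatic and sinusoidal endothelium, from 4.22 to 20.5. The 10 genes nearest to Kdr included 8 of these, and C1qtnf1 and Tspan7. The 10 nearest to Col1a1 were Tnfsf9, Rhbdf2, Gfpt2, Bcl3, Ebi3, Nupr1, Sparcl1, Il27, Tle3 and Adamts2. Ebi3 and Il27, the subunits of interleukin-27, ranged from 27.0 to 44.0 and from 24.0 to 46.1 FPKM, Il27 with its highest value in library 10. Adamts2, a protease that trims fibrillar procollagens, ranged from 1.23 in library 5 to 3.37 in library 11.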

How the data were processed

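RNA of sorted macrophages was sequenced, and build mm10 and the tools fastp, HISAT and HTSeq, without versions, come from the submitters' processing notes. The authors deposited FPKM values in 1 table; no source used here gives its formula, annotation or strand setting. All 15 columns carry the label TAM that the 16 samples share, so they were used as libraries of 1 group without treatment.

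In each library the values were whole multiples of the value of 1 read for 22130 of 22215 genes above 0 in at least 3 libraries (tolerance 0.005 reads), and the implied gene length was whole for 22113 (tolerance 0.01 bases). This gave totals of 37232854 to 40565360 reads. In simulated data of 4000 genes, every recovered count was checked and 100.0% were exact. Python 3.11.15, numpy 2.4.6, pandas 2.3.3, scipy 1.17.1 and matplotlib 3.10.9 were used.

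Library distance was the mean chi-square per gene over 12208 genes averaging at least 50 reads, and 4 sets, a number chosen to equal that of the treatments, were cut by average linkage. Planned permutation tests of 26 gene correlations were not run, because every set held fewer than 6 libraries. Intervals are exact Poisson, 95%. Ranges and ranks used genes with a median of at least 1 FPKM. Genes were named by rule: each of the 39, the 10 nearest genes to Stab2, Kdr and Col1a1, and examples of other lists. The genes and lists were chosen with earlier results of these data known. Nothing says that the libraries came from separate animals. Motifs were counted in RefSeq promoter windows, and overlapping exons in GENCODE M21 (GRCm38, which is mm10).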

Additional observations from a re-analysis of the deposited data

How the results depend on the processing

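The highest library stood 2.81-fold above the lowest for the summed endothelial genes. The ratio was 2.97 with every library rescaled to one equal sum, 2.51 with median-ratio size factors, 2.28 without libraries 5 and 6, whose hepatocyte genes summed highest, and 2.48 without Clec4g, the highest of the list. For the mesenchymal sum, 1.29-fold, it was 1.24, 1.46, 1.29 and, without Sparc, 1.39. Size factors ran from -0.14 to 0.11 on the log2 scale, so values move by that much with the scaling. Leaving out 1 library at a time gave 2.76 to 2.81 for the endothelial and 1.28 to 1.29 for the mesenchymal sum. The counts by library shift more. Endothelial genes highest in library 5, 9 of 18, were 7 to 11 under either scaling and 9 to 14 with 1 library left out, the 14 without library 6. Those highest in library 6, 6 of 18, were 5 to 6, and 6 to 14, the 14 without library 5. Those lowest in library 9, 12 of 18, were 10 to 12, and 12 to 16. Those lowest in library 10, 4 of 18, were 3 after rescaling and 7 with size factors, and 4 to 15, the 15 without library 9. Mesenchymal genes highest in libraries 9 and 12, 4 of 16 each, were 3 to 5 under either scaling and 4 to 5 with 1 library left out. Those lowest in library 1, 4 of 16, were 7 without libraries 5 and 6, and 4 to 5 with 1 left out. Those lowest in library 16, 4 of 16, were 2 with size factors, and 4 to 5 with 1 left out. The cause of these shifts was not tested. The counts by library, and for the sums the size factors and the left-out libraries, were chosen after seeing the data. Alternatives for correlations, another pseudocount and ranks in place of values, and the median correlation within each list were not run, since no correlation is given. No paired analysis was possible because no column can be tied to a treatment or to a replicate number of the labels. Depth limits Lrat, Reln, Hand2 and Sox18, which had at most 236 reads in any library.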

Other observations

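The libraries were cut into 4 sets, the number of treatments, by the reads of 12208 genes. Within a set, the mean chi-square per gene between libraries was at most 19.4, and between sets it was at least 24.0 and at most 117. The same distances made the cut, so they do not test it. Libraries 9 and 10 stood at 13.1 to 19.4 from libraries 11 and 12, not far below that 24.0. The sets held 3 libraries (1, 3 and 4) and 4 libraries each (5 to 8, 9 to 12, and 13 to 16). No label ties a set to a treatment, and none is assigned here. Kdr in these sets had 7.47 to 8.11, 9.18 to 15.8, 3.29 to 4.78 and 9.87 to 12.3 FPKM, and Col1a1 78.3 to 83.5, 69.4 to 79.1, 113 to 120.1 and 67.5 to 89.2 FPKM. The ratio of Stab2 to Col1a1 FPKM within a library spanned 9.14-fold, from 0.0324 in library 9 to 0.296 in library 5, and that of Clec4g to Col1a1 10.7-fold, from 0.132 to 1.41.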
